A study of Arabidopsis thaliana with 12 samples.

Results

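The proteasome is the protease that degrades proteins tagged with ubiquitin. Its 20S core is a barrel of stacked alpha and beta rings, in which beta subunits cleave the substrate, and its 19S cap binds, unfolds and feeds in the substrate with a ring of ATPases and a set of non-ATPase subunits. In Arabidopsis most subunits are encoded by pairs of similar genes, and the transcription factors NAC053 and NAC078 raise the expression of these genes under proteotoxic stress through an element with the core TGGGC.

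The proteasome genes described here are the protein-coding genes whose product name in the RefSeq annotation of TAIR10.1 contains the word proteasome. There were 45 such genes among 27444 protein-coding genes, on all 5 chromosomes. By product, 28 of them are named subunits of the 20S core (11 alpha ring, 7 beta ring) or of the 19S cap (2 ATPases, 8 non-ATPases). The word also caught 17 other genes, so the set is wider than the particle itself. These are 4 proteins named only for a PCI domain (a fold shared by the cap, the COP9 signalosome and other complexes), 4 subunits of the COP9 signalosome and the TREX-2 protein EER5, 1 activator and 2 inhibitor-like proteins, and 5 assembly or maturation factors. Conversely, the rule left out genuine subunits whose product name lacks the word, among them PBA1 and RPN10, which are described separately below.

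Open chromatin was mapped with ATAC-seq, an assay based on the transposase Tn5, which inserts adapters into accessible DNA. The nuclei came from whole Arabidopsis thaliana seedlings grown under long days for 10 days after germination (DAG). The 12 samples cover 6 genotypes with 2 biological replicates each, the Col-0 wild type (WT) and, as mutants in Polycomb group genes, ring1ab, lhp1, emf1-2, clf28swn7 and bmi1abc. bmi1abc, clf28swn7 and emf1-2 are severe mutants whose shoots stay embryonic-like, ring1ab is a weak mutant, and a whole seedling mixes organs and cell types. The file is a merged list of 23226 Tn5 hypersensitive sites (THSs) with coordinates only. It does not say which genotype opened a site, so genotypes were not compared, no value has an error over replicates, and the depth behind a site is unknown. A gene without a THS is one with no site in the list. It is not shown to have closed chromatin.

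The promoters of several proteasome genes carried the TGGGC core. In those with a THS over the transcription start site (TSS), 25 of 25 copies in the promoter window lay inside a THS. This was near the 94.0% of copies in all protein-coding genes with such a THS. Choosing genes with a THS there favours such overlap, since the copies lie close to the TSS. Over all proteasome genes, 29 of 57 copies lay inside a THS. The 150 bases before the TSS are shown for 5 genes with a THS in that stretch and 2 without, to let the copies be compared. They were chosen after their values were seen, among stretches that no other annotated gene overlaps. They read 5′ to 3′ on the strand of the gene and come from the RefSeq TAIR10.1 genome. Capitals mark TGGGC on either strand, read as GCCCA on the other strand, and a run of 8 capitals is a pair of overlapping copies.
PAD1 (chr3:19030776-19030925, plus strand, all 150 bases in a THS): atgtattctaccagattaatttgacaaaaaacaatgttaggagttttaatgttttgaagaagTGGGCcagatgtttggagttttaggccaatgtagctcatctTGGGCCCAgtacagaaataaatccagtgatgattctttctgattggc
PBD1 (chr3:8010863-8011012, minus strand, all 150 bases in a THS): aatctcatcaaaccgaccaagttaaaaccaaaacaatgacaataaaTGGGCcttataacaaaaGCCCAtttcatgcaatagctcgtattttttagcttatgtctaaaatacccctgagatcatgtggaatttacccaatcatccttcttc
RPN1A (chr2:8858812-8858961, plus strand, 116 bases in a THS): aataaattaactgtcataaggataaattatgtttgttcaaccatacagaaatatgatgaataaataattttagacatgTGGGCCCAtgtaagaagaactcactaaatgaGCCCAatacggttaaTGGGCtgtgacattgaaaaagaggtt
RPN1B (chr4:14072583-14072732, minus strand, all 150 bases in a THS): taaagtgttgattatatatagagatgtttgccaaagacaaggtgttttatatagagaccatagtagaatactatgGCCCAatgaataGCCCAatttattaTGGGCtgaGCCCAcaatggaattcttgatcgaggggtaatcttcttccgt
AT1G04810 (chr1:1349930-1350079, plus strand, all 150 bases in a THS): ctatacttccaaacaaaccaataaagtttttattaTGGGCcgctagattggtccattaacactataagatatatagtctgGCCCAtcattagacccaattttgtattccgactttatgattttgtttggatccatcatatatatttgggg
PBB2 (chr5:16250926-16251075, minus strand, no THS): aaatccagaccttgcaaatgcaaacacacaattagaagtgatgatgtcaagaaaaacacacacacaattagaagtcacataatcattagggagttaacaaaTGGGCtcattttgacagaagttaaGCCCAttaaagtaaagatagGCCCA
AT1G67250 (chr1:25165057-25165206, minus strand, no THS): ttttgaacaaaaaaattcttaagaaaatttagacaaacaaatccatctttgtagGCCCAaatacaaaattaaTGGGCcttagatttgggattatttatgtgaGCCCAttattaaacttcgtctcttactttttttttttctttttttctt

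To ask how many proteasome genes had an accessible site, the THSs over the gene or the 1 kb upstream were counted. Of the 45 genes, 28 had at least 1 such THS, 62.2% (95% Wilson interval 47.6 to 74.9%), beside 60.1% of all protein-coding genes. The intervals treat genes as independent draws, which gene pairs are not, and cover counting error only. A promoter THS, meaning a site that touches the TSS or the 1 kb before it, was listed for 22 genes, 48.9% (35.0 to 63.0%), beside 47.6% of all protein-coding genes. Both shares lay near the background, so neither is a result about proteasome genes. A THS across the TSS itself was listed for 15 genes, 33.3% (21.4 to 47.9%), beside 26.1% of all protein-coding genes. Several sites at a gene were less common, and 2 or more THSs were found at 9 genes, 20% (10.9 to 33.8%), beside 18.8% of all protein-coding genes. When the midpoint of a THS had to lie in the window, this share was 11.1% beside 15.1%, below that of all genes.

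**Figure D1:**
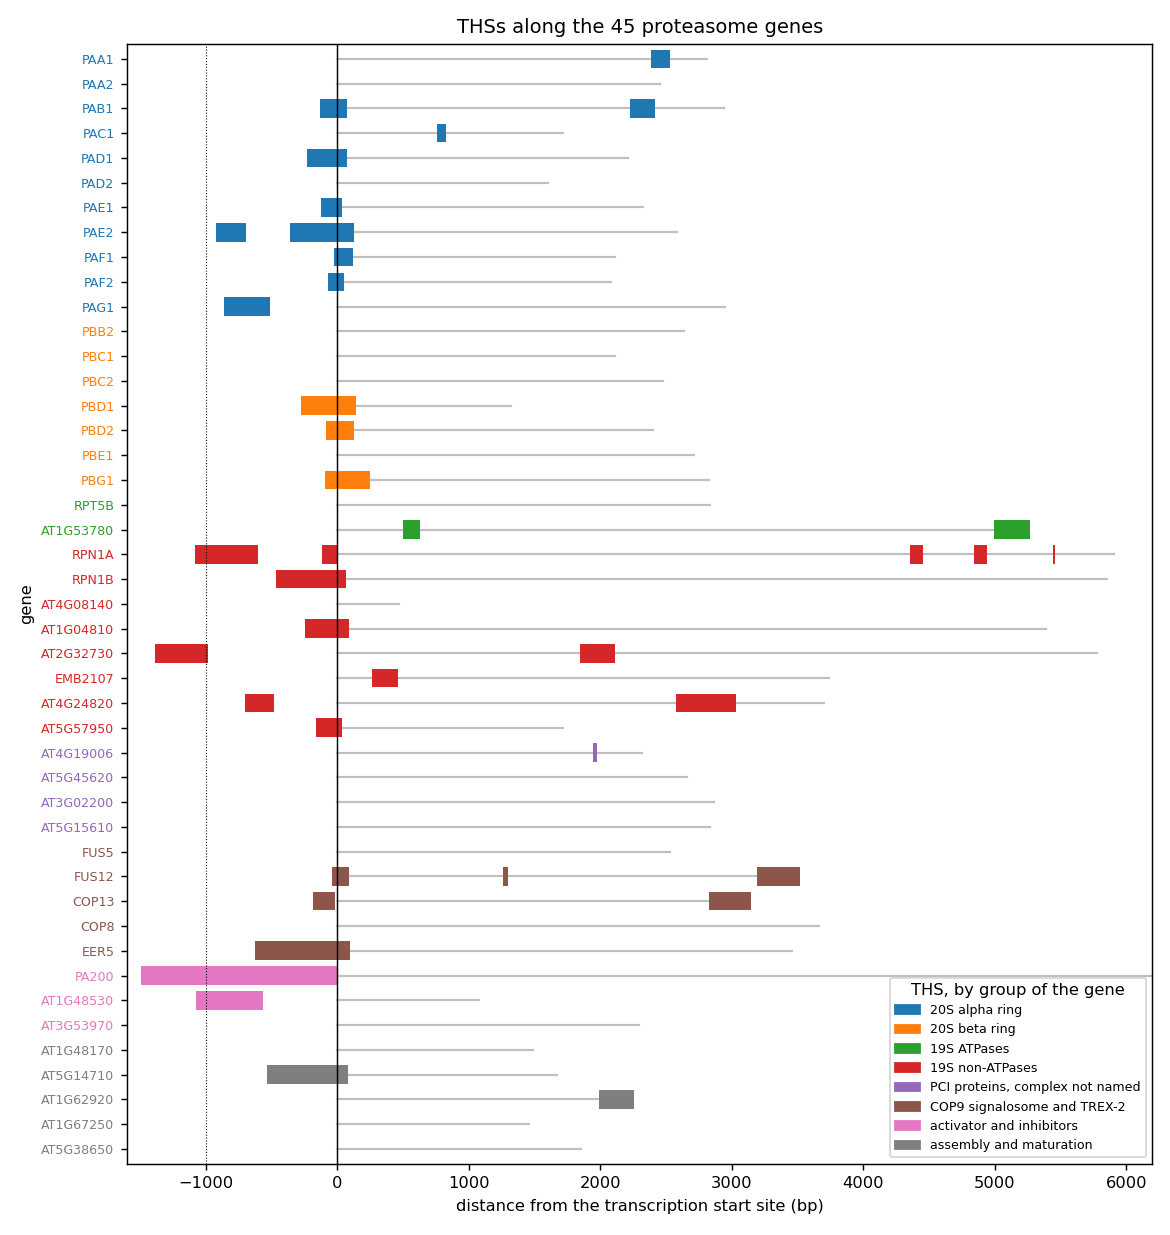
THSs (bars, coloured by group) along each of the 45 genes, with the gene as a grey line and distance from the TSS in bp on the x axis. The dotted line marks 1 kb upstream, and a second THS of PA200, at 10549 to 11005 bp, lies beyond the axis. A bar crosses the TSS in 6 of 11 alpha ring rows, 3 of 7 beta ring rows and 3 of 8 rows of 19S non-ATPases. It does so in 0 of 2 rows of 19S ATPases and 3 of 17 rows of other products, and 17 rows hold no bar.

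Among the named 20S and 19S subunits, 16 of 28 had a promoter THS (57.1%, 39.1 to 73.5%) and 12 had it across the TSS (42.9%, 26.5 to 60.9%). Among the other 17 products, 6 had a promoter THS (35.3%, 17.3 to 58.7%) and 3 had it across the TSS (17.6%, 6.19 to 41.0%). The intervals of these subsets overlap each other, and those of the promoter THS hold the value of all protein-coding genes. Across the TSS, the interval of the named subunits lay just above the 26.1% of all protein-coding genes, and that of the other products held it. Of the PCI genes counted here as other products, AT4G19006 and AT5G45620 are subunits in a textbook list of loci, although the annotation does not name them so. With both among the subunits, a grouping chosen after seeing the data, the share with a THS across the TSS was 12 of 30 (40.0%, 24.6 to 57.7%), an interval that holds the 26.1% of all protein-coding genes. The named subunits also include AT5G57950, with a THS across the TSS, and AT4G08140, with none, which are not in that list. The share without these genes was not computed.

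**Figure D2:**
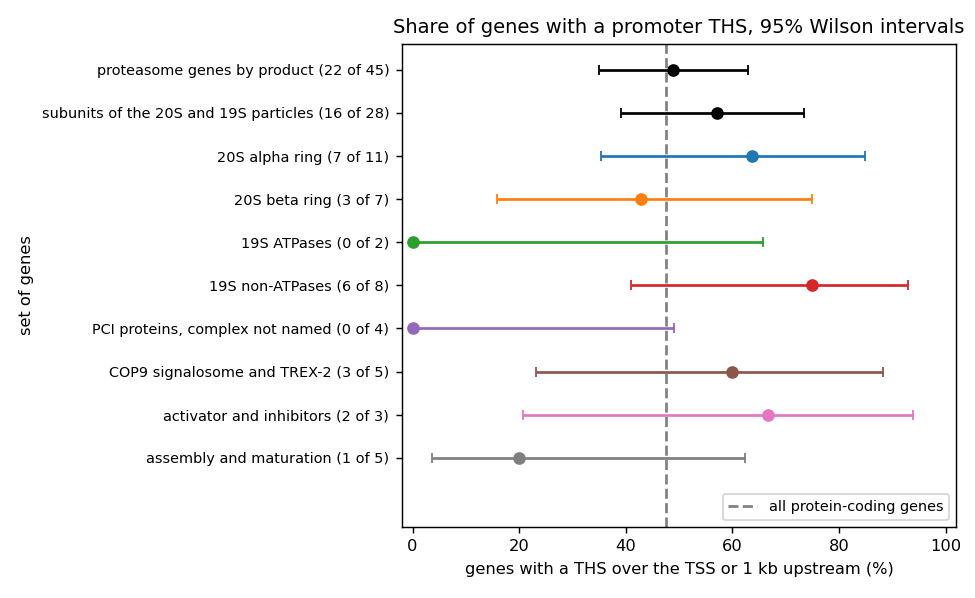
Percentage of genes that had a promoter THS, for the whole set, the named subunits and each group, as points with 95% Wilson intervals; the dashed line is the 47.6% of all protein-coding genes. Every interval drawn reaches across the dashed line.

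The alpha ring forms the gated outer ring of the core. Of its 11 genes, 9 had a THS, 7 had a promoter THS and 6 had it across the TSS. PAD1 had a THS of 302 bp from 228 bp before to 73 bp after the TSS (chr3:19030698-19030999). PAE1 had a THS of 159 bp (chr1:20106045-20106203), and PAE2 had THSs of 227 and 485 bp, the longer from 362 bp before to 122 bp after the TSS. PAF1 and PAF2 had short THSs of 146 and 121 bp, and the midpoint of the latter, 9 bp before the TSS, was the nearest to a TSS of any in the set. PAB1 had a THS of 200 bp across the TSS and a further THS of 183 bp in an intron. The remaining alpha genes were less alike. PAG1 had a single THS of 353 bp that ended 514 bp before the TSS and overlapped CAM5, a calmodulin gene on the opposite strand whose start lies 789 bp upstream. PAA1 and PAC1 each had a THS in a coding exon and no other, of 148 and 66 bp, and PAA2 and PAD2 had none.

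The beta ring holds the proteolytic sites. Of its 7 genes, 3 had a THS, and each of these lay across the TSS. PBD1 had a THS of 422 bp (chr3:8010721-8011142), PBG1 one of 343 bp and PBD2 one of 214 bp. No THS was listed at PBB2 and PBE1, which encode catalytic subunits, or at PBC1 and PBC2. These 7 genes thus had a site across the TSS or none at all, which was not so for PBA1, a beta gene outside the set.

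The ATPases of the cap unfold the substrate. RPT5B had no THS. AT1G53780, named only as an ATPase of the regulatory complex, had no promoter THS. It had a THS of 129 bp in its 5′ UTR, 501 to 629 bp after the outermost start, and another of 268 bp across its 3′ end that also overlapped AT1G53770.

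The non-ATPase subunits form the base scaffold and the lid of the cap. Of these 8 genes, 7 had a THS and 6 a promoter THS, of which 3 lay across the TSS. RPN1A, a base scaffold subunit, had the most THSs of the set, 5. Of these, 1 of 483 bp lay 1087 to 605 bp before the TSS, 1 of 116 bp ended 3 bp before it (chr2:8858844-8858959), and 3 of 98, 105 and 13 bp lay in coding exons. The 13 bp piece was the shortest THS of the set. Its paralog RPN1B had a single THS of 527 bp from 465 bp before to 61 bp after the TSS (chr4:14072521-14073047). This THS also lay upstream of AT4G28480, which starts 426 bp away on the other strand. The RPN2 genes, which encode the other scaffold subunit of the base, were unlike each other. AT1G04810 had a THS of 334 bp across the TSS (chr1:1349837-1350170). AT2G32730 had a THS of 402 bp that reached only 14 bases into the 1 kb upstream and overlapped CB5-B, plus one of 264 bp in an intron.

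Of the lid genes, EMB2107 (RPN5) had a THS of 198 bp in its 5′ UTR, 265 to 462 bp after the TSS, that also overlapped AT5G09910. AT4G24820 (RPN7) had a THS of 226 bp ending 481 bp before the TSS and one of 458 bp whose midpoint lay in an intron. The last 2 non-ATPase genes are not placed in the base or the lid by their product names. AT5G57950, a regulatory subunit by product, had a THS of 197 bp across the TSS. AT4G08140, a subunit-like gene of 468 bp with no annotated 5′ UTR, had none.

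The remaining products varied most in the length of their THSs. PA200, an activator that caps the core in place of the 19S particle, had the longest THS of the set, 1491 bp (chr3:4330226-4331716). It covered 993 of the 1000 bases upstream, stopped 8 bp before the TSS, and also overlapped AT3G13340. A second THS of 457 bp at the 3′ end of PA200, with its midpoint 10777 bp after the TSS, was the farthest from a start. Of the inhibitor-like genes, AT1G48530 had a THS of 515 bp that ended 565 bp before the TSS and overlapped AT1G48540, and AT3G53970 had none. Of the assembly and maturation factors, the chaperone-like gene AT5G14710 had a THS of 610 bp across the TSS. AT1G62920 had 1 of 265 bp across its 3′ end that overlapped RPF3. The chaperone AT1G48170 and both genes for the UMP1 maturation factor, AT1G67250 and AT5G38650, had none.

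Among the COP9 signalosome genes, which act on cullin ubiquitin ligases and repress photomorphogenesis, FUS12 had 3 THSs, of which 1 of 127 bp lay across the TSS. COP13 had a THS of 168 bp ending 17 bp before the TSS and one of 316 bp across its 3′ end. FUS5 and COP8 had none. EER5 had a THS of 718 bp across the TSS (chr2:8469053-8469770). Of the 4 genes named only for a PCI domain, AT4G19006 had a THS of 26 bp in a coding exon, and AT5G45620, AT3G02200 and AT5G15610 had none. With this last count all 17 genes without a THS are named.

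To compare similar genes, 12 paralog pairs (24 genes) were set side by side. Their proteins shared 63.0 to 98.7% of aligned residues, with a median of 92.6%. The lowest value was that of the inhibitor-like genes AT1G48530 and AT3G53970, whose proteins have 175 and 302 residues. This pair, the UMP1 pair and the pairs of PCI genes are not named subunits. In 5 pairs both genes had a THS over the gene or 1 kb upstream, in 4 pairs only 1 gene did, and in 3 pairs neither did. The pairs that differed were PAA1 over PAA2, PAD1 over PAD2, AT4G19006 over AT5G45620 and AT1G48530 over AT3G53970. PAD1 and PAD2 were 95.2% identical, yet 228 of the 1000 bases upstream of PAD1 lay in a THS and 0 of those upstream of PAD2. Across the TSS, both genes had a THS in 3 pairs (PAE, PAF and PBD), 1 gene in 3 pairs (PAD1, RPN1B and AT1G04810), and neither in 6. How reads that match both genes of a pair were placed is not given in the sources used here, so a missing site in such a gene is uncertain.

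The location of THSs was examined next. The 28 genes with a THS had 41 THSs. Their midpoints lay upstream of the TSS for 20 (48.8%), in a 5′ UTR for 6, in a coding exon for 7, in an intron for 3 and past the 3′ end for 5. For all protein-coding genes 56.4% of 22938 gene and THS pairs lay upstream and 13.0% in a coding exon, beside 17.1% here. The share of proteasome genes with a THS was highest from 26 to 17 bp before the TSS, where 18 of 45 genes (40.0%) had one. For all protein-coding genes it was highest 59 bp before the TSS, at 28.5%. The share of the named subunits reached 46.4%, or 13 of 28.

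**Figure D3:**
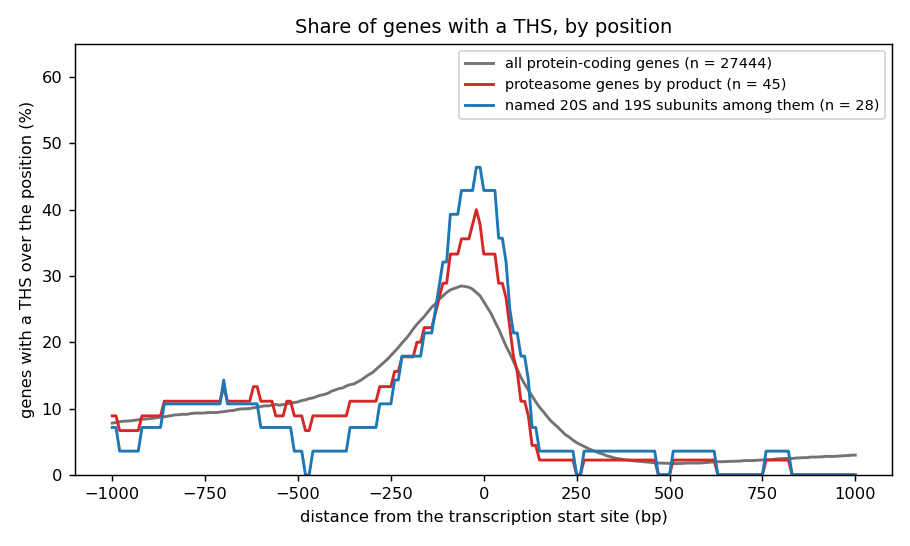
Share of genes with a THS over each position, in percent, against distance from the TSS in bp, for all protein-coding genes (grey), the 45 proteasome genes (red) and the 28 named subunits among them (blue). The proteasome curve peaks at 40.0% just before the TSS and drops under the grey curve after about the first 100 bp of the gene.

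Relative to the TSS, the midpoints of the 24 promoter THSs had a median of −89 bp (order-statistic interval, nominally 95%, −266.5 to −60.5 bp), beside −192 bp for all protein-coding genes. With THSs of at least 200 bp only, the order turned, to −228.5 bp beside −201 bp. The 15 THSs across a TSS began at a median of −164 bp and ended at a median of 88 bp, beside −207 and 95 bp for all genes. The median length of the 41 THSs was 227 bp (183 to 331 bp), beside 256 bp. Promoter THSs had a median of 318 bp (200 to 422 bp), beside 290 bp, and THSs elsewhere over the gene 183 bp, beside 184 bp. A median of 0 bases of the 1 kb upstream lay in a THS, for proteasome genes and all protein-coding genes alike. Among the 22 proteasome genes with any such bases the median was 227 (126 to 436), beside 247. Each of these intervals for midpoints, lengths and covered bases holds the value of all protein-coding genes. The proteasome genes had a median of 2586 bp (2320 to 2831 bp) beside 2078 bp, which gives more room for a THS over the gene body; the promoter windows do not depend on it.

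A THS near a start can serve more than 1 gene, and in a merged list the genes cannot be told apart. Of the 24 promoter THSs, 11 were also promoter THSs of another protein-coding gene (45.8%, beside 32.7% for all protein-coding genes). They belonged to PAB1 (shared with RDH2, whose start is 72 bp away), PAE2, PAG1, PBD2 (with ATSUV3), PBG1 (with TPR5), RPN1B, AT1G04810, AT2G32730, COP13, PA200 and AT1G48530. A promoter THS shared with no other protein-coding gene was found at 12 of the 45 genes (26.7%), beside 32.2% of all. Of the 17 THSs elsewhere over a proteasome gene, 8 lay over the start or the 1 kb upstream of a neighbour (47.1%, beside 31.4% for all protein-coding genes). No interval was computed for the shares of shared sites. They rest on small counts, and a difference from all genes was not tested. An opposite-strand gene started within 1 kb upstream of 7 proteasome genes (15.6%), beside 18.8% of all protein-coding genes, and 5 of the 7 had a promoter THS (71.4%, beside 62.4% of all genes with such a neighbour). FUS5, whose neighbour SBI1 starts 4 bp away, and AT1G62920 were the others.

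The TGGGC core was then counted from 250 bp before to 50 bp after each TSS, on both strands. It occurred in 25 of 45 proteasome promoters, 55.6% (41.2 to 69.1%), beside 26.0% of all protein-coding promoters. It was present 2 or more times in 19 of them (42.2%), beside 14.5% of all. The core is contained in the site II elements TGGGCC and TGGGCT, and 54 of the 57 copies were part of these. A site II element occurred in 24 proteasome promoters (53.3%), beside 21.7% of all promoters. The copies lay close to the start. Of the 57, 42 began from 150 to 1 bp before the TSS and 14 at or after it, with a median first base at −41 bp. By group, the core was found at 6 of 11 alpha, 5 of 7 beta, 2 of 2 ATPase and 4 of 8 non-ATPase genes, and at 8 of the 17 other products.

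RPN1A and RPN1B had the most copies, 5 each, and 20 genes had none, among them PAA1, PAA2, PAB1, PAE2 and PBD2, the last 3 of which had a THS across the TSS. Both promoters carried the core in 4 of the 12 pairs (PAD, PAF, RPN1 and UMP1). In 6 pairs it was found in 1 gene, namely PAE1, PBC1, PBD1, AT1G04810, AT4G19006 and AT3G53970, and in 2 pairs in neither. The UMP1 genes AT1G67250 and AT5G38650 had 3 copies each and no THS.

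**Figure D4:**
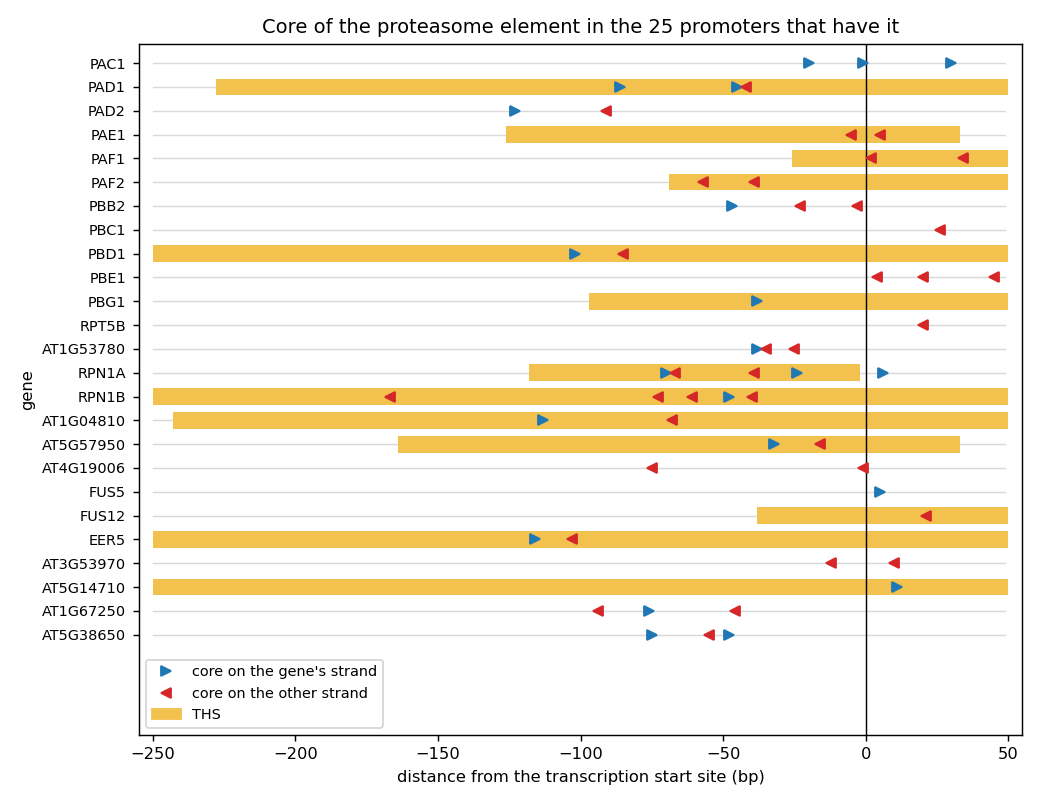
Position of each copy of the core (triangles, pointing right on the strand of the gene and left on the other strand) from 250 bp before to 50 bp after the TSS in the 25 promoters that have it, with THSs as yellow bars. Copies gather within 150 bp of the TSS, 29 of the 57 lie inside a THS, and 28 lie outside.

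The core and a THS were compared within promoters. In the 15 proteasome genes with a THS across the TSS, 25 of 25 copies lay wholly inside a THS, beside 94.0% of 6752 copies in all protein-coding genes with such a THS. The THSs covered 3178 of the 4500 bases of these windows. Because these genes were picked by a THS across the TSS, close to which the copies lie, such overlap was favoured from the start. The core was about as frequent in proteasome promoters with and without a promoter THS, at 13 of 22 genes (59.1%, 38.7 to 76.7%) and 12 of 23 genes (52.2%, 33.0 to 70.8%). Among all protein-coding genes the same shares were 35.4% with a promoter THS and 17.4% without. Of the 17 proteasome genes with no THS at all, 9 carried the core.

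Other short motifs were rarer. AAACCCT, the core of the telo-box found in promoters of ribosomal protein genes, occurred in 2 proteasome promoters, AT1G04810 and AT5G45620 (4.44%), beside 10.0% of all promoters. CACGTG, the G-box bound by bZIP and bHLH factors, occurred in 0 of 45 (upper Wilson bound 7.87%), beside 7.68% of all. A match is a string in a window, not a bound site, and a missing match says only that these letters are not there.

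To see what the product rule left out, 74 names of proteasome subunits and related factors were looked up, and 56 were paired with a locus by the annotation. Of these, 28 are in the set above and 28 are not. Of the 19 subunits outside the set, 14 had a THS over the gene or 1 kb upstream (73.7%, beside 60.1% of all protein-coding genes) and 10 a promoter THS (52.6%, near the 47.6% of all). A THS across the TSS was listed for 7 (36.8%, beside 26.1%), and 12 carried TGGGC (63.2%, beside 26.0%). No interval was computed for the shares of these 19 genes. PBA1, the caspase-like catalytic subunit, had THSs of 52 and 127 bp, the nearer ending 30 bp before the TSS. PBB1, the paralog of PBB2, had one of 258 bp across the TSS and one of 177 bp that began 2807 bp after it. PBF1, RPT4A, RPT5A, RPN8A and DSS1(I) had none. The ubiquitin receptor gene RPN10 had a THS of 197 bp that began 2372 bp after the TSS and no promoter THS. With all 44 matched subunits as the set, 56.8% had a promoter THS, beside 47.6% of all protein-coding genes, and 61.4% carried the core, beside 26.0%. A THS across the TSS was listed for 18 of the 44 (40.9%), beside 26.1%, again without an interval. Adding AT1G53780, AT4G19006 and AT5G45620, listed as subunits by locus only, gave 25 of 47 (53.2%) with a promoter THS and 29 of 47 (61.7%) with the core. Of these 47, 18 had a THS across the TSS (38.3%, 25.8 to 52.6%), an interval that holds the 26.1%.

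The regulator NAC053 was also among the names. It had a THS of 624 bp from 367 bp before to 256 bp after the TSS and no TGGGC in its own promoter. These names were listed with earlier results of these data known, and no test was made of them.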

How the data were processed

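The authors isolated nuclei from whole seedlings, prepared ATAC-seq libraries and, after trimming (Trimmomatic), mapped the reads to TAIR10 without the organelle genomes (bowtie) and discarded duplicates (Picard). Per replicate they called peaks with MACS2, then intersected replicates and merged genotypes. Reads in regions of excessive coverage were removed, so no site can be listed there. A further filter on low signal is described. The deposited list holds more regions than that filter left, so it is not the filtered list. Tool versions are not given in the sources used here. Intersection can leave short pieces, and merging keeps a site open in any genotype. The deposited list has 3 columns, chromosome, start and end, which are coordinates in bp with no signal, score or sample name. Depth per sample is therefore not analysed here.

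Coordinates were placed on the RefSeq annotation of TAIR10.1, and 0 of 23226 regions passed a chromosome end. They count from 1. The TSS was the outer 5′ end of the gene record, and 1 bp of overlap counted. Shares carry 95% Wilson intervals and medians order-statistic intervals (scipy 1.17.1). The level of the latter is nominal, since the ranks taken can cover slightly less than 95%. Pairs were aligned as proteins translated from the longest coding sequence (Biopython 1.88, BLOSUM62, gap costs 11 and 1), counting identical residues over aligned ones. Window rules were tested on simulated regions. Python 3.11.15 and matplotlib 3.10.9 drew the figures.

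No test was made, since 1 merged list holds no replicates. All proteasome genes were accounted for. Values were given for genes with most and no THSs, the longest, shortest, nearest and farthest THS, pairs that differ, shared starts, and most and fewest TGGGC. The set, gene lists and motifs were chosen with earlier results of these data known. Alternatives varied the minimum length, merging, overlap, upstream limit, start site, gene set and motif. Some listed genes are not reported here.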

Additional observations from a re-analysis of the deposited data

How the results depend on the processing

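The list has no sample, depth or signal, so leaving out a replicate could not be done. No paired analysis was possible because the sites are a single merged list with no sample columns. For 8 results, 77 alternatives were run, 6 of them chosen after seeing the data. Of the 77, 74 gave a value within the interval of the value reported, which for medians is nominally 95%. The 3 others came from keeping only THSs of at least 200 bp, which by construction drops the shorter ones. The share of proteasome genes with a THS over the gene or 1 kb upstream was then 44.4% (all protein-coding genes 45.9%), that with 2 or more THSs 8.89% (8.58%), and the median THS length 348 bp (355 bp). A midpoint or 50 bp overlap rule was not run for the THS across the TSS, since that window is 1 bp. The promoter share ranged from 35.6% (THSs of at least 200 bp) to 57.8% (2 kb upstream), beside 36.8% and 57.4% of all protein-coding genes. The share across the TSS ranged from 22.2% (THSs of at least 200 bp, beside 20.9%) to 42.9% (named subunits, beside 26.1%). The share with TGGGC ranged from 48.9% (500 bp before the TSS, beside 32.9%) to 61.7%, beside 26.0%. The latter was for textbook subunits plus members listed by locus only. The order against all protein-coding genes turned in 2 of 10 alternatives for the share with any THS, in 4 of 12 for the promoter share and in 4 of 10 for 2 or more THSs (11.1% beside 15.1% by midpoint, 13.3% beside 17.1% at 50 bp overlap, 22.2% beside 27.4% at 2 kb, 20.9% beside 21.2% for genes with a 5′ UTR). It also turned for the median midpoint with THSs of at least 200 bp (−228.5 bp beside −201 bp), which was −215.25 bp beside −479.5 bp at 2 kb. In the alternatives run it did not turn for the THS across the TSS or for TGGGC.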
